A study of Mus musculus with 40 samples.

Results

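Adding an antibody against PD-1 to an Fc-dead antibody against the GARP:TGF-β1 complex was examined by RNA-seq of whole tumors, by comparing the mice labelled anti-GARP:TGFb FcD + anti-PD1 FcS with those labelled anti-GARP:TGFb FcD. The tumors were taken by this label alone, which gave 10 of the 40 tumors of the series, 5 in each group. All 10 mice were BALB/c, 6 to 12 weeks old, carried CT26 tumors grown from 1000000 cells injected under the skin, and received the anti-GARP:TGF-β1 antibody (clone 58A2, mouse IgG2a) in its FcD form, which cannot bind Fcγ receptors, on days 6, 9 and 12. The combination mice also received anti-PD-1 FcS, the variable regions of clone RMP1-14 on an Fc-silent mouse IgG2a. Tumor fragments were frozen on day 13, 1 day after the last injection, and each library came from 1 tumor. CT26 is a colon carcinoma line of BALB/c mice, and its hosts keep all their own leukocytes. The fragments therefore mix carcinoma cells, leukocytes, stroma and adjoining tissue, and fewer cells of a type cannot be told apart from less RNA per cell.

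GARP, encoded by Lrrc32, holds latent TGF-β1 on the surface of activated regulatory T cells, and integrins release the active cytokine from that complex. PD-1 is a receptor on activated T cells that damps signals from the T cell receptor when it meets PD-L1 or PD-L2 on tumor or myeloid cells. T cells and NK cells that are released from such brakes secrete IFNγ, which acts on neighboring cells and turns on guanylate-binding proteins, immunity-related GTPases, MHC molecules and PD-L1 itself. The comparison asks what PD-1 blockade adds to a tumor in which GARP:TGF-β1 is already blocked without Fc receptor engagement.

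Total counts were 11931730 to 16131660 per mouse in the FcD group (median 14703974) and 12359062 to 14562396 in the combination group (median 14040353), and did not differ beyond the spread between mice (2-sided exact permutation test, p = 0.484, n = 5 per group, smallest p allowed 0.00794). Values are given as counts per 1000000 (CPM) after TMM scaling, in the order of the library numbers by which the mice are called here. These are 41, 58, 61, 70 and 75 for the FcD mice and 44, 50, 60, 71 and 80 for the combination mice. Of 14760 genes, edgeR's quasi-likelihood test called 0 at an adjusted p under 0.05, and the smallest adjusted p was 0.122. At an unadjusted p under 0.05, 1915 genes (13.0%) were higher and 1168 (7.91%) were lower in the combination mice, and these shares are the background for the counts below. All 5 combination mice lay above all 5 FcD mice for 391 genes (2.65%) and below them for 273 (1.85%). DESeq2's Wald test called 175 genes higher (1.13% of 15519) and 24 lower (0.155%) on the same counts, limma voom with quality weights called 2544 and 2177, and edgeR on these 10 mice alone called 426 and 50. With mouse 50 left out, edgeR called 434 genes higher (2.90%) and 285 lower (1.91%). Without mouse 71 the share at an unadjusted p under 0.05 was 8.12% higher and 4.38% lower, without mouse 44 it was 8.80% and 4.47%, and without mouse 50 it was 16.6% and 17.0%. Without mice 44 and 71, 0 genes were called and 478 (3.17%) and 278 (1.84%) had an unadjusted p under 0.05 in the 2 directions.

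Each p reflects the spread between mice, since each library came from its own mouse. Libraries 41 to 60 and 61 to 80 differed in Y-linked transcripts and Xist. Xist was at most 0.167 CPM in the libraries numbered up to 60 and at least 126 CPM in the others, and both groups held mice from each part, 2 and 3 for FcD, 3 and 2 for the combination. Within libraries 61 to 80, Xist was 126, 151 and 136 CPM in the FcD mice and 380 and 315 CPM in the combination mice, and within libraries 41 to 60 Ddx3y was 8.29 and 9.02 CPM against 22.8, 6.86 and 19.4 CPM. Within libraries 41 to 60, 271 genes (1.84%) were higher and 285 (1.93%) lower at an unadjusted p under 0.05, and within libraries 61 to 80 these were 1348 (9.13%) and 896 (6.07%). Markers of simple epithelium were scarce in tumors labelled CT26, and Epcam, a surface protein of epithelial cells, was at 0.186, 0.0835, 0.637, 1.83 and 1.39 CPM in the FcD mice and 0.216, 0, 0, 39.1 and 6.77 CPM in the combination mice.

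**Figure D1:**
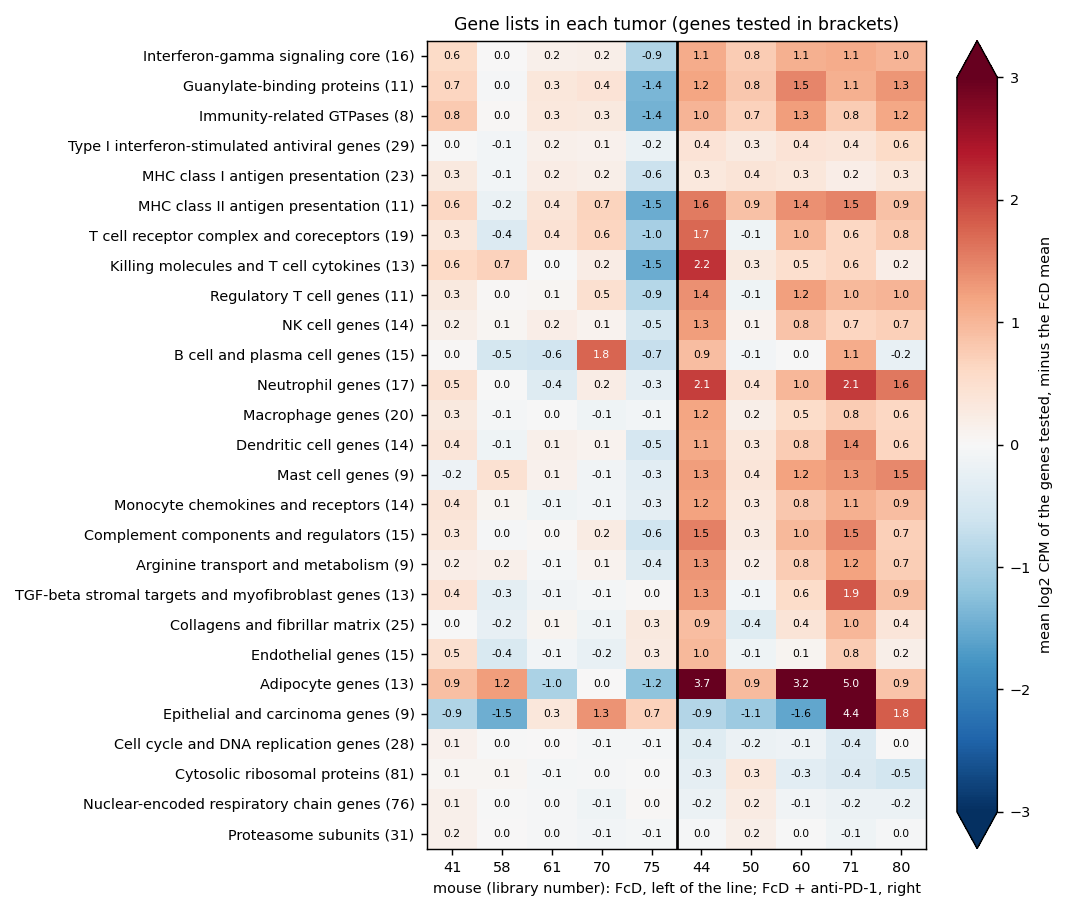
Mean log2 CPM of the genes tested of 27 gene lists, minus the mean of the 5 FcD mice, with 1 column per tumor and 1 row per list; red is above and blue below the FcD mean. Mice 44, 60, 71 and 80 are red in most immune and myeloid rows, mouse 50 is closer to the FcD mice there except in the interferon and MHC rows, and the B cell row is highest in mouse 70, an FcD mouse.

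The transcripts that both antibodies concern were taken first, although an antibody against a surface protein need not change its mRNA. Lrrc32 was at 5.01, 3.09, 4.11, 3.31 and 3.78 CPM in the FcD mice and 12.5, 2.64, 6.17, 10.4 and 5.84 CPM in the combination mice (log2 difference 0.95, SE 0.44, adjusted p = 0.213). Mouse 50 lay below every FcD mouse and the other combination mice above all of them. Tgfb1 was at 115, 80.5, 98.9, 97.8 and 94.6 CPM in the FcD mice and 124, 83.0, 89.0, 91.5 and 115 CPM in the combination mice (log2 difference 0.04, SE 0.16, adjusted p = 0.892), with wide overlap. Pdcd1, which encodes PD-1, was at 7.61, 3.51, 9.20, 10.4 and 2.06 CPM in the FcD mice and 18.7, 4.83, 7.53, 4.32 and 5.97 CPM in the combination mice (log2 difference 0.33, SE 0.61, adjusted p = 0.771). Mouse 44 was its only combination mouse above the FcD range. Foxp3, the lineage factor of regulatory T cells, was 1.09 (SE 0.47) higher on the log2 scale, with 4 combination mice above the FcD mice.

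The ligands of PD-1 had larger differences. Cd274, which encodes PD-L1, was at 108, 69.7, 77.2, 92.6 and 25.5 CPM in the FcD mice and 292, 109.7, 199, 225 and 186 CPM in the combination mice (log2 difference 1.44, SE 0.41, adjusted p = 0.127). All combination mice exceeded all FcD mice, mouse 50 by a narrow margin. Pdcd1lg2, which encodes PD-L2, was at 3.96, 5.60, 2.27, 1.69 and 0.465 CPM in the FcD mice and 26.2, 4.75, 17.4, 12.9 and 17.1 CPM in the combination mice (log2 difference 2.496, SE 0.69, adjusted p = 0.122), with mouse 50 inside the FcD range. DESeq2 called both higher, with adjusted p values of 0.0394 and 0.0368. Of the 12 genes tested of the PD-1 axis and exhaustion receptors, 5 were higher and 0 lower at an unadjusted p under 0.05, beside 13.0% and 7.91% of all genes, and their median log2 difference was 0.71, beside -0.01 for all genes. The 5 were 3 without mouse 44 or without mouse 75, and 2 without mice 44 and 71.

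**Figure D2:**
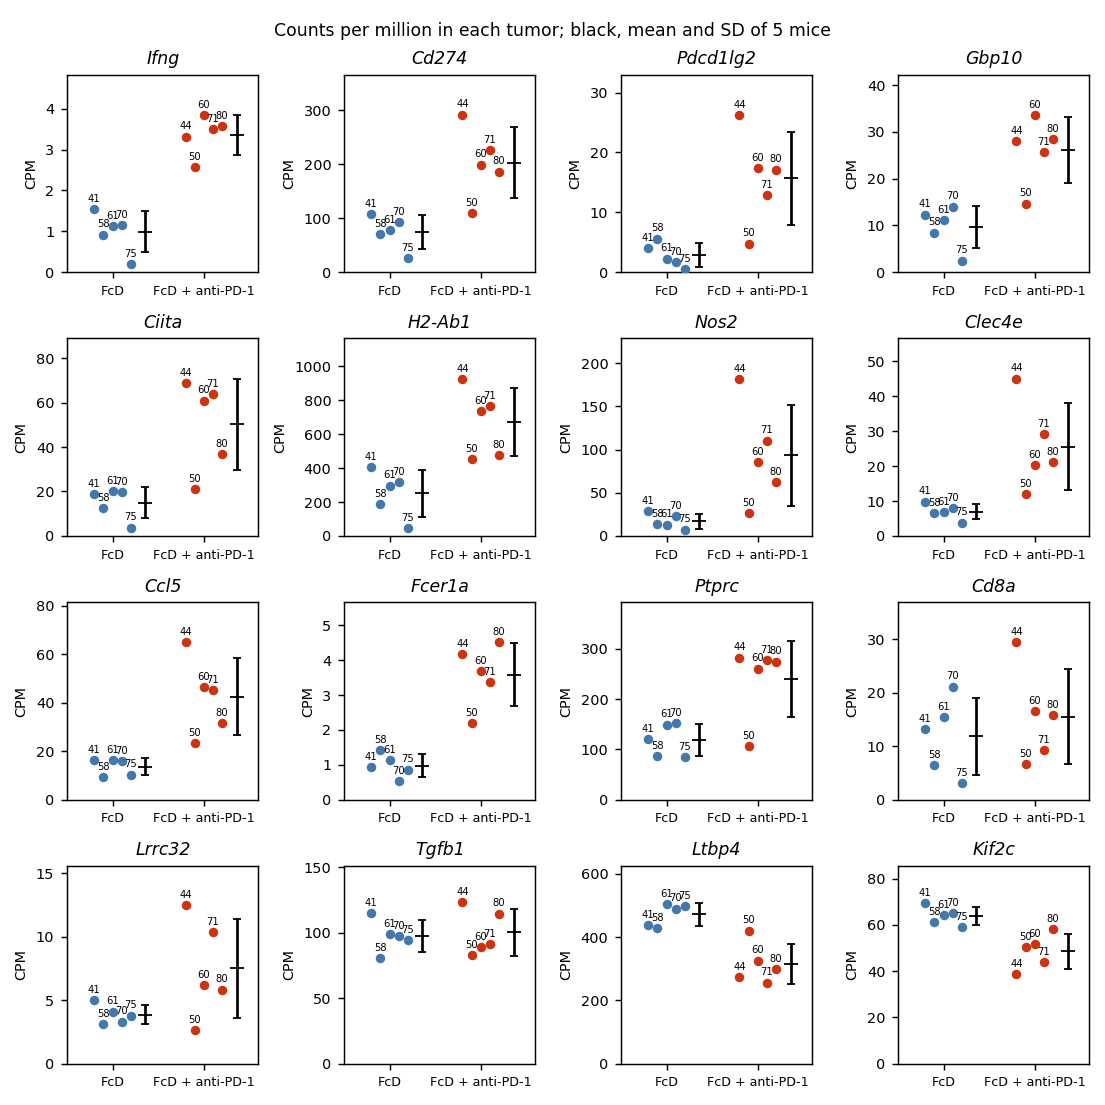
CPM of 16 genes in each tumor (linear axes from 0), with FcD mice in blue, combination mice in red, the library number above each point and the mean and SD of 5 mice in black. Ifng, Cd274, Gbp10, Ciita, H2-Ab1, Clec4e, Ccl5 and Fcer1a show no overlap between groups, Cd8a and Tgfb1 overlap widely, and Ltbp4 and Kif2c are lower in every combination mouse.

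Transcripts that mark leukocytes were read next, from Ptprc, the pan-leukocyte antigen CD45, to genes of the T cell receptor complex. Ptprc was at 120.4, 86.5, 149, 152 and 85.3 CPM in the FcD mice and 282, 107, 260.3, 277 and 275 CPM in the combination mice (log2 difference 1.02, SE 0.42, adjusted p = 0.178). In 4 combination mice it exceeded the FcD range, and in mouse 50 it did not. Cd3e was at 6.68, 2.51, 7.15, 7.31 and 1.86 CPM in the FcD mice and 16.4, 3.39, 8.10, 4.79 and 7.10 CPM in the combination mice (log2 difference 0.64, SE 0.57, adjusted p = 0.512). Cd8a was at 13.2, 6.43, 15.4, 21.2 and 3.19 CPM in the FcD mice and 29.5, 6.64, 16.6, 9.31 and 15.8 CPM in the combination mice (log2 difference 0.39, SE 0.65, adjusted p = 0.745). These values overlapped almost wholly. Cd4 was 0.93 (SE 0.45) higher on the log2 scale. All 19 genes of the T cell receptor list had a log2 difference above 0, with a median log2 difference of 0.81, but 6 of them reached an unadjusted p under 0.05, and 0 had combination mice that all lay above the FcD mice. The 6 were 1 without mouse 44, without mouse 58 or without mouse 75, 2 without mouse 60, 3 without mouse 41 and 0 without mice 44 and 71. The median was 0.47 without mouse 44 and also without mice 44 and 71.

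Among cytokine genes of T and NK cells, Ifng and Tnf did not overlap between the groups. Ifng was at 1.55, 0.919, 1.13, 1.15 and 0.199 CPM in the FcD mice and 3.31, 2.56, 3.85, 3.51 and 3.58 CPM in the combination mice (log2 difference 1.75, SE 0.48, adjusted p = 0.122). The lowest combination mouse was above the highest FcD mouse. These CPM correspond to 3 to 25 reads per FcD mouse and 34 to 54 per combination mouse. Tnf was at 10.6, 6.60, 8.21, 10.7 and 4.38 CPM in the FcD mice and 18.4, 14.4, 22.04, 16.5 and 22.3 CPM in the combination mice (log2 difference 1.21, SE 0.34, adjusted p = 0.126), again without overlap. DESeq2 called Ifng and Tnf higher, with adjusted p values of 0.0334 and 0.0439. Gzmb, the granule protease granzyme B, was at 73.2, 48.5, 59.1, 55.4 and 19.8 CPM in the FcD mice and 213, 65.6, 113, 119 and 111 CPM in the combination mice (log2 difference 1.28, SE 0.40, adjusted p = 0.131), with mouse 50 inside the FcD range. Prf1, which encodes perforin, was at 47.0, 43.3, 47.8, 49.0 and 11.8 CPM in the FcD mice and 121, 34.9, 50.3, 48.6 and 61.7 CPM in the combination mice (log2 difference 0.67, SE 0.39, adjusted p = 0.311). Its FcD mean was lowered by mouse 75 and its combination mean raised by mouse 44, far above the others. Of the 13 killing molecules and T cell cytokines tested, 5 were higher at an unadjusted p under 0.05 and 0 lower, and 3 were higher without mouse 75. Of the 11 regulatory T cell genes, 6 were higher and 0 lower (median log2 difference 1.02), and 3 were higher without mouse 44 or without mouse 75. The 6 were 2 without mice 44 and 71. Tbx21, the T-bet factor of type 1 T cells, was 1.18 (SE 0.49) higher, and all 5 combination mice lay above the FcD mice.

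Genes that IFNγ is known to induce were read family by family, and the families differed. All 11 guanylate-binding proteins (GBPs), GTPases that attack pathogen vacuoles and membranes inside cells, were higher at an unadjusted p under 0.05, with a median log2 difference of 0.99 and 6 members without overlap. Summed over the family, their level was 2175, 1091, 1473, 1539.6 and 399.7 CPM in the FcD mice and 2639.7, 2177, 3119, 2256 and 2916 CPM in the combination mice. Mice 41 and 50 were nearly level, at the top of one group and the bottom of the other. Gbp10 was at 12.3, 8.44, 11.04, 14.0 and 2.46 CPM in the FcD mice and 28.0, 14.6, 33.7, 25.7 and 28.4 CPM in the combination mice (log2 difference 1.43, SE 0.48, adjusted p = 0.135). Gbp5 was at 69.8, 40.6, 50.0, 48.2 and 19.7 CPM in the FcD mice and 105.3, 71.3, 114, 95.9 and 101 CPM in the combination mice (log2 difference 1.09, SE 0.36, adjusted p = 0.135). Gbp11 was 1.18 (SE 0.35) and Gbp8 1.20 (SE 0.40) higher, both without overlap, while Gbp3 was 0.90 (SE 0.33) higher with mouse 71 inside the FcD range. FcD mouse 75 was the lowest for each of these 5 genes, and without it 7 of the 11 had an unadjusted p under 0.05, while 9 to 11 did with any other mouse left out. Several members are close copies of each other, and how the counting divided reads between them is uncertain. Without mice 44 and 71 the count was 11, beside 3.17% of all genes.

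The immunity-related GTPases, another family of GTPases that interferon induces, had 5 of 8 members higher at an unadjusted p under 0.05 and 0 lower, with a median log2 difference of 0.75. Irgm1 was at 135, 68.7, 83.2, 78.7 and 32.7 CPM in the FcD mice and 134, 127, 151, 104 and 145 CPM in the combination mice (log2 difference 0.73, SE 0.30, adjusted p = 0.173), with mouse 41 level with the combination mice. Igtp was at 373, 172, 209, 211 and 55.1 CPM in the FcD mice and 343, 391, 409.8, 259 and 361 CPM in the combination mice (log2 difference 0.79, SE 0.36, adjusted p = 0.210). Without mouse 75, 1 of the 8 had an unadjusted p under 0.05, and 3 did without mouse 58, without mouse 60 or without mouse 80. Of the 16 genes of the IFNγ signaling core, 13 were higher and 0 lower (median log2 difference 0.78), between 10 and 13 with any 1 mouse left out and 11 without mice 44 and 71. Socs1, a feedback inhibitor of this pathway, was 0.65 (SE 0.21) higher. Irf8, a factor of myeloid cells that IFNγ induces, was at 101, 63.2, 84.2, 74.4 and 62.2 CPM in the FcD mice and 182, 103, 130.3, 143 and 128 CPM in the combination mice (log2 difference 0.83, SE 0.25, adjusted p = 0.128). Ido1, which degrades tryptophan, was at 7.86, 5.35, 3.75, 5.82 and 0.398 CPM in the FcD mice and 6.13, 9.88, 8.66, 61.8 and 15.1 CPM in the combination mice (log2 difference 2.13, SE 0.55, adjusted p = 0.122). Without mouse 71, its highest, the log2 difference was 1.10.

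The promoters of these GTPases are printed because all 11 GBPs and 5 of 8 immunity-related GTPases were higher at an unadjusted p under 0.05. A further reason is that interferon-activated factors are known to bind ISRE and GAS elements. Of the GBPs and immunity-related GTPases tested, 5 and 5 matched a promoter in RefSeq (GRCm38.p6). In the 250 bases before the start, all 5 and all 5 held the ISRE letters on either strand, which are GAAA followed after any 2 bases by GAAA, beside 3.46% of 27025 genes, and 2 and 4 held the GAS letters TTCNNNGAA, which are their own reverse complement, beside 8.13%. Of the type I interferon list, 10 of 21 matched promoters held the ISRE letters, and of the MHC class II list 1 of 8. The IFNγ signaling core had 2 of 11, the neutrophil list 0 of 15 and the cell cycle list 1 of 23. In the same order, 5, 1, 3, 3 and 1 of these promoters held the GAS letters. A gene with several annotated starts counts as holding a motif where any of them does, and of these 10 GTPases only Gbp3 has a further start, where neither motif was found. The 180 bases before each start are given 5′ to 3′ on the gene's strand, with matches to either motif in capitals, where adjoining matches run together.
Gbp3, chr3:142559864-142560043, plus strand: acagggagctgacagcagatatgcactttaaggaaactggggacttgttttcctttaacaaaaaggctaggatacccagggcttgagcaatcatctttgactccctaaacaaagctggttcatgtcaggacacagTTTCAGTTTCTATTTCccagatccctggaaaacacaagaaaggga
Gbp5, chr3:142496754-142496933, plus strand: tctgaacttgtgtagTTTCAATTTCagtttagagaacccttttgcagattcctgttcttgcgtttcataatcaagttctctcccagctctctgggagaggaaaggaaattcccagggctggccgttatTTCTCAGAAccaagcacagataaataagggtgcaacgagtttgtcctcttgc
Irgm1, chr11:48871421-48871600, minus strand: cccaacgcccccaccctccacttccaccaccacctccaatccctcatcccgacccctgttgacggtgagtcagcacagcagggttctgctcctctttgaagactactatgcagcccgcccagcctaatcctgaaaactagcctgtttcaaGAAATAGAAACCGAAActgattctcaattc
Irgm2, chr11:58214797-58214976, plus strand: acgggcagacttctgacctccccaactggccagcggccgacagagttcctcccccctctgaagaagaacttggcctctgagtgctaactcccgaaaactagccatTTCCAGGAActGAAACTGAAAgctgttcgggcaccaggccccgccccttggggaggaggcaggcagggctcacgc
Igtp, chr11:58199376-58199555, plus strand: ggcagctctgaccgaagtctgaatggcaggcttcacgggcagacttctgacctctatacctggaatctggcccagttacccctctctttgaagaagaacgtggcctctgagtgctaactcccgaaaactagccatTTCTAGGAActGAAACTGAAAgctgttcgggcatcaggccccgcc
In Irgm2 and Igtp the GAS match stands just before the ISRE match. A match is a description of letters and was not tested for binding in these tumors.

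Interferon-stimulated antiviral genes, which type I interferon induces and IFNγ can also raise, had smaller differences. All 29 had a log2 difference above 0, 17 with an unadjusted p under 0.05, and 11 showed no overlap, beside 2.65% of all genes. Their median log2 difference was 0.42. Their summed level was 2527, 2133, 2725, 2598 and 1904 CPM in the FcD mice and 3242, 3046, 3204, 3018 and 3526 CPM in the combination mice, with the highest FcD mouse below the lowest combination mouse. Irf7, the factor that amplifies the interferon response, was at 199, 169, 248, 208 and 182 CPM in the FcD mice and 300.1, 261, 262, 258 and 314 CPM in the combination mice (log2 difference 0.47, SE 0.17, adjusted p = 0.137). Oasl2 was 0.54 (SE 0.19), Ifit3 0.49 (SE 0.18) and Dhx58, an RNA sensor, 0.51 (SE 0.16) higher on the log2 scale, all without overlap. Of 5 genes of the Ifitm family, membrane proteins that block viral entry, 1 was higher, but not without mouse 44, and 0 lower. Ifitm3 was at 832, 651, 829, 699.9 and 643 CPM in the FcD mice and 741, 897, 746, 662 and 769 CPM in the combination mice (log2 difference 0.06, SE 0.11, adjusted p = 0.756). Of the 29, 12 to 17 were higher with any 1 mouse left out and 13 without mice 44 and 71.

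MHC class II genes, which present antigen to CD4+ T cells and which IFNγ induces through Ciita, had a median difference close to that of the GBPs. Of 11 tested, 9 were higher at an unadjusted p under 0.05, 8 showed no overlap, and the median log2 difference was 1.04. Ciita, the coactivator that switches class II genes on, was at 18.9, 12.4, 20.1, 19.8 and 3.72 CPM in the FcD mice and 68.6, 21.0, 60.9, 63.9 and 37.0 CPM in the combination mice (log2 difference 1.74, SE 0.63, adjusted p = 0.142), with the lowest combination mouse barely above the highest FcD mouse. H2-Ab1, the class II β chain, was at 407, 186, 297, 319.9 and 47.5 CPM in the FcD mice and 927, 455, 739, 766 and 478 CPM in the combination mice (log2 difference 1.42, SE 0.53, adjusted p = 0.149). H2-Aa and H2-Eb1 were 1.37 (SE 0.54) and 1.47 (SE 0.56) higher, and Ctss, the protease that trims the invariant chain, was 0.96 (SE 0.34) higher. Mouse 75 held the lowest value for H2-Ab1, H2-Aa, H2-Eb1, Ctss and Ciita. The count was 5 of 11 without mouse 75, 5 without mouse 58, and 1 without mice 44 and 71, when the median log2 difference was 0.91. Class I genes differed less. Of 23, 4 were higher, 0 lower, with 0 higher without mouse 75, 2 without mouse 60 and 11 without mouse 41. B2m, the invariant class I chain, was at 2151, 1973, 2169, 2199 and 1534 CPM in the FcD mice and 2549, 2242, 2483, 2315 and 2305 CPM in the combination mice (log2 difference 0.25, SE 0.11, adjusted p = 0.211). Nlrc5, the class I coactivator, was 0.68 (SE 0.27) higher, while the immunoproteasome subunit Psmb9 was 0.44 (SE 0.24) higher with overlap.

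**Figure D3:**
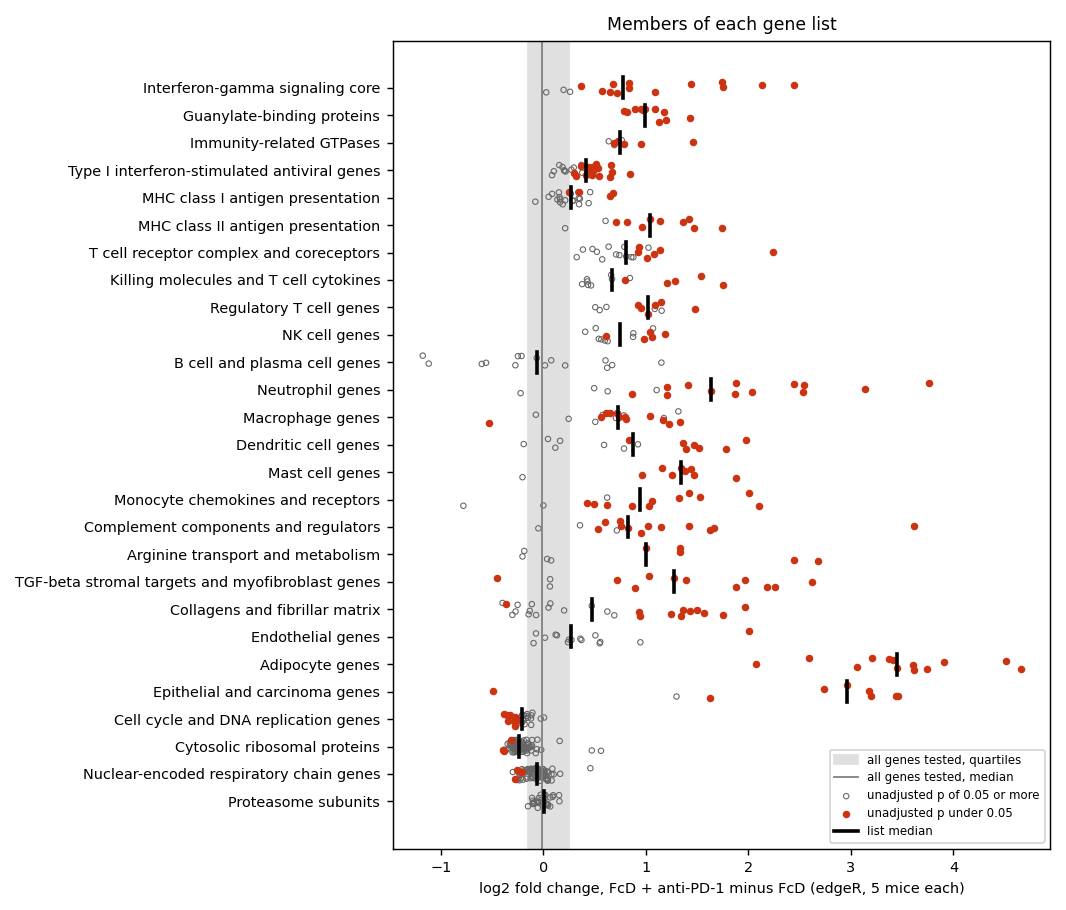
Log2 difference of every tested member of 27 gene lists (1 point per gene; x axis, FcD + anti-PD-1 minus FcD; rows, lists), filled red at an unadjusted p under 0.05, with the list median as a black bar and the quartiles of all genes in grey. GBP and adipocyte points are all red, the cell cycle and ribosomal protein rows lie left of 0 as narrow clouds, and the proteasome median is at 0.01.

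Among genes of myeloid cells, neutrophil genes had the largest median difference. Of 17 tested, 13 were higher and 0 lower at an unadjusted p under 0.05 (median log2 difference 1.63), with a summed level of 166, 118, 107, 131 and 108 CPM in the FcD mice and 482, 172, 259.8, 444 and 294 CPM in the combination mice. Mice 44 and 71 were the highest and mouse 50 lay just above mouse 41. The count was 12 or 13 with any 1 mouse left out, and 7 without mice 44 and 71. Of this list, Ly6g, Camp, Ngp, Mpo and Elane did not pass the filter and were not tested. They had at most 3, 5, 7, 10 and 3 reads in any of these 10 mice. Cxcr2, the neutrophil chemokine receptor, was at 0.619, 0.585, 0.142, 0.677 and 0.465 CPM in the FcD mice and 9.94, 0.980, 2.004, 5.33 and 3.92 CPM in the combination mice (log2 difference 3.14, SE 0.85, adjusted p = 0.122). Fpr1 and Fpr2, receptors for formyl peptides, were 1.88 (SE 0.57) and 1.21 (SE 0.36) higher. Clec4e, the receptor Mincle that senses dead cells and mycobacterial glycolipids, was at 9.84, 6.43, 6.87, 7.92 and 3.85 CPM in the FcD mice and 45.0, 12.0, 20.2, 29.1 and 21.2 CPM in the combination mice (log2 difference 1.87, SE 0.39, adjusted p = 0.122). Its neighbor Clec4d was at 21.5, 11.6, 5.73, 12.4 and 7.17 CPM in the FcD mice and 90.7, 17.9, 40.4, 52.5 and 39.1 CPM in the combination mice (log2 difference 2.04, SE 0.54, adjusted p = 0.122). Irak2, a kinase below Toll-like and IL-1 receptors, was at 28.6, 21.8, 21.8, 24.3 and 18.5 CPM in the FcD mice and 46.6, 31.5, 34.4, 39.6 and 32.1 CPM in the combination mice (log2 difference 0.68, SE 0.15, adjusted p = 0.122), with the smallest SE of these genes.

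Genes of arginine transport and metabolism differed with a wide spread between mice. Nos2, the inducible nitric oxide synthase, was at 28.6, 13.6, 13.2, 22.5 and 7.30 CPM in the FcD mice and 182, 26.2, 85.5, 110.4 and 62.6 CPM in the combination mice (log2 difference 2.45, SE 0.56, adjusted p = 0.122). Slc7a2, an arginine importer, was at 4.08, 4.68, 5.52, 4.74 and 1.73 CPM in the FcD mice and 23.5, 4.07, 12.7, 77.9 and 14.5 CPM in the combination mice (log2 difference 2.68, SE 0.58, adjusted p = 0.122), with mouse 71 far above the rest. Ass1, which rebuilds arginine from citrulline, was at 16.3, 15.2, 15.7, 16.6 and 7.84 CPM in the FcD mice and 32.6, 17.9, 31.1, 34.2 and 27.3 CPM in the combination mice (log2 difference 1.00, SE 0.25, adjusted p = 0.122), and did not overlap. Of the 9 genes of this list, 5 were higher and 0 lower at an unadjusted p under 0.05, 4 or 5 with any 1 mouse left out and 3 without mice 44 and 71. DESeq2 called 4 of them higher. Of the 2 with a log2 difference below 0, Odc1, which makes polyamines, was the only member with all combination mice below the FcD mice, and is named here after its values were seen (log2 difference -0.20, SE 0.11, adjusted p = 0.297).

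Macrophage genes had a median log2 difference of 0.73, with 11 of 20 higher and 1 lower at an unadjusted p under 0.05, 4 higher without mouse 44 and 1 without mice 44 and 71. The lower gene did not reach this p without mouse 58, 44, 71 or 80. Msr1, a scavenger receptor, was at 243, 203, 216, 223 and 191 CPM in the FcD mice and 337, 238, 313, 302 and 399 CPM in the combination mice (log2 difference 0.56, SE 0.18, adjusted p = 0.132). Mertk, a receptor for dying cells, was 1.17 (SE 0.41) higher. Of the 14 dendritic cell genes, 7 were higher and 0 lower, among them Clec9a and Xcr1, which mark cross-presenting cells, at 1.52 (SE 0.59) and 1.47 (SE 0.60). That count was 6 to 8 with any 1 mouse left out and 2 without mice 44 and 71. It was 0 within libraries 41 to 60 and 6 within libraries 61 to 80. Of the 6 IgG Fc receptor genes, the signaling chain Fcer1g and the transport receptor Fcgrt included, 4 were higher and 0 lower. The 4 were 2 without mouse 75 and 1 without mice 44 and 71. Fcgr4 was at 138, 58.0, 104, 96.5 and 27.6 CPM in the FcD mice and 207, 108, 239.9, 211 and 215 CPM in the combination mice (log2 difference 1.21, SE 0.49, adjusted p = 0.173).

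Mast cell genes, which encode granule proteases and IgE receptor chains, differed in most members. Of 9, 8 were higher and 0 lower at an unadjusted p under 0.05 (median log2 difference 1.34), 7 or 8 with any 1 mouse left out and 6 without mice 44 and 71. Fcer1a, a chain of the high-affinity IgE receptor, was at 0.928, 1.42, 1.13, 0.541 and 0.863 CPM in the FcD mice and 4.18, 2.19, 3.69, 3.37 and 4.51 CPM in the combination mice (log2 difference 1.88, SE 0.49, adjusted p = 0.122), with no overlap. Cpa3, a mast cell protease, was at 9.46, 20.4, 11.8, 11.4 and 8.03 CPM in the FcD mice and 36.8, 14.8, 36.9, 37.1 and 42.3 CPM in the combination mice (log2 difference 1.47, SE 0.49, adjusted p = 0.135). Tpsb2, a tryptase, was 1.38 (SE 0.48) higher. Hdc, which makes histamine, was at 7.11, 4.93, 2.90, 4.06 and 2.06 CPM in the FcD mice and 21.3, 5.35, 9.46, 14.2 and 15.2 CPM in the combination mice (log2 difference 1.63, SE 0.46, adjusted p = 0.126).

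Of 14 NK cell genes, 5 were higher and 0 lower (median log2 difference 0.75), and 8 were higher without mouse 50. Klrk1, the activating receptor NKG2D, was 1.06 (SE 0.39) higher without overlap, and Ncr1 was 0.61 (SE 0.26) higher with overlap. Of 15 B and plasma cell genes, 0 were higher and 0 lower (median log2 difference -0.06), and the median ranged over -0.23 to -0.011 without any 1 mouse other than mouse 70 and was 0.99 without mouse 70. Ms4a1, the B cell antigen CD20, was at 0.866, 0, 0.354, 6.70 and 0.133 CPM in the FcD mice and 1.15, 0.302, 0.481, 1.35 and 0.265 CPM in the combination mice, and mouse 70 alone set the FcD mean.

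Of 14 monocyte chemokines and receptors, 11 were higher and 0 lower at an unadjusted p under 0.05 (median log2 difference 0.95), 9 to 12 with any 1 mouse left out and 6 without mice 44 and 71. Ccl5, which T cells and macrophages secrete, was at 16.5, 9.52, 16.4, 15.9 and 10.4 CPM in the FcD mice and 65.0, 23.5, 46.5, 45.3 and 31.7 CPM in the combination mice (log2 difference 1.62, SE 0.40, adjusted p = 0.122), without overlap. Ccl3 and Ccl4, chemokines of activated macrophages and T cells, were 1.53 (SE 0.43) and 1.32 (SE 0.39) higher, with mouse 50 inside the FcD range for both. Cxcl12, a stromal chemokine, was at 17.8, 17.1, 13.7, 15.97 and 11.3 CPM in the FcD mice and 72.2, 15.99, 43.4, 78.5 and 35.5 CPM in the combination mice (log2 difference 1.70, SE 0.50, adjusted p = 0.127). Of 15 complement genes, 12 were higher and 0 lower, 7 without mouse 44, 7 without mouse 75 and 4 without mice 44 and 71. C3, the central component, was at 113, 90.3, 86.0, 96.1 and 45.0 CPM in the FcD mice and 341, 142, 282, 375 and 185 CPM in the combination mice (log2 difference 1.62, SE 0.37, adjusted p = 0.122). Of 23 IL-1 family and inflammatory cytokine genes, 9 were higher and 0 lower, and 5 were higher without mice 44 and 71. Nlrp3, the inflammasome sensor, was at 13.8, 13.0, 12.3, 13.9 and 12.0 CPM in the FcD mice and 25.3, 14.0, 20.4, 35.6 and 28.3 CPM in the combination mice (log2 difference 0.93, SE 0.26, adjusted p = 0.122). Il18 was 0.88 (SE 0.25) higher. Of 21 TNF and NF-κB feedback genes, 9 were higher and 1 lower, the latter not without mouse 44 or 71. The higher count was 5 without both of these mice.

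The main groups were also read within each part of the libraries. GBPs had a median log2 difference of 0.77 within libraries 41 to 60, with 0 of 11 higher at an unadjusted p under 0.05, and 1.26 within libraries 61 to 80, with 9 of 11. MHC class II genes had 0.95 and 1.15, with 0 and 2 of 11, and antiviral interferon genes 0.41 and 0.43, with 5 and 5 of 29. Neutrophil genes had 0.99 and 2.02, with 4 and 14 of 17, and mast cell genes 0.99 and 1.71, with 1 and 8 of 9. Fat cell genes, described below, had 2.07 and 5.47, with 0 and 13 of 13. These are to be read against 1.84% and 9.13% of all genes. Cell cycle genes had medians of -0.27 and -0.13 in the 2 parts, with 10 and 0 of 28 lower. Ribosomal protein genes had -0.11 and -0.48, with 0 and 34 of 81 lower. The shares of all genes that were lower were 1.93% and 6.07%. Within libraries 61 to 80, edgeR called 3 genes higher, Ido1, Oxtr and Slc5a5, the last 2 of them chosen for that call after their values were seen.

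The TGF-β pathway itself gave small and mixed differences. Of 14 ligands and genes of latent TGF-β activation, 4 were higher and 3 lower at an unadjusted p under 0.05. All of the lower ones were latent TGF-β binding proteins, which anchor latent TGF-β in matrix. Ltbp4 was at 439, 429, 504, 489.7 and 497 CPM in the FcD mice and 275, 420.4, 325, 256 and 299 CPM in the combination mice (log2 difference -0.58, SE 0.16, adjusted p = 0.124). Each combination mouse lay below every FcD mouse. DESeq2 called it lower, with an adjusted p of 0.0462. Ltbp3 and Ltbp1 were -0.38 (SE 0.12) and -0.47 (SE 0.16) on the log2 scale, also without overlap, and these 3 were also lower without mice 44 and 71. The higher count was 2 without mouse 58 or without mouse 75, 1 without mouse 44 and 0 without mice 44 and 71. Thbs1, thrombospondin 1, which can activate latent TGF-β, was at 59.8, 43.4, 41.3, 48.8 and 37.7 CPM in the FcD mice and 187, 38.01, 73.6, 123 and 91.7 CPM in the combination mice (log2 difference 1.15, SE 0.40, adjusted p = 0.137). Nrros, the myeloid relative of GARP, was 0.61 (SE 0.25) higher without overlap. Of 17 receptor, Smad and feedback genes, 1 was higher and 1, Smad3 at -0.29 (SE 0.11), lower, and these counts were 3 and 2 without mouse 50. The lower count was 2 without mouse 58 and 0 without mouse 75 or 71.

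Stromal genes that TGF-β is known to induce were highest in mice 44 and 71. Of 13 TGF-β stromal targets, 10 were higher and 1 lower at an unadjusted p under 0.05 (median log2 difference 1.28), but 5 were higher without mouse 61, 3 without mouse 71 and 0 without mice 44 and 71. Postn, periostin, was at 17.9, 17.6, 11.5, 10.3 and 14.3 CPM in the FcD mice and 98.4, 13.0, 46.8, 148 and 37.3 CPM in the combination mice (log2 difference 2.26, SE 0.80, adjusted p = 0.139). Fap, a protease of activated fibroblasts, was at 1.36, 1.25, 0.708, 0.609 and 0.996 CPM in the FcD mice and 4.90, 1.66, 2.73, 6.95 and 1.99 CPM in the combination mice (log2 difference 1.88, SE 0.53, adjusted p = 0.122). Of 25 collagens and fibrillar matrix genes, 10 were higher and 1 lower, 3 higher without mouse 44, 3 without mouse 71 and 0 without both. The lower gene of the stromal targets did not reach this p without mouse 61, 75, 44 or 71, and that of the collagen list without mouse 61, 75, 44, 60 or 80, while the collagen list had 2 lower without mouse 58 or 50. The median of the stromal targets was 0.73 and that of the collagens 0.298 without mouse 71. Lum, the matrix proteoglycan lumican, was at 3.46, 3.17, 6.44, 4.19 and 9.30 CPM in the FcD mice and 29.8, 3.09, 10.6, 52.1 and 8.36 CPM in the combination mice (log2 difference 1.96, SE 0.72, adjusted p = 0.146). It was highest in mice 44 and 71, which were also the highest in fat cell genes.

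Fat cell genes had the largest median difference of the lists described here. All 13 adipocyte genes were higher at an unadjusted p under 0.05, with a median log2 difference of 3.45. Their sum was 161, 162, 51.6, 81.3 and 57.7 CPM in the FcD mice and 971, 165, 519.9, 2007 and 196 CPM in the combination mice. Mice 44, 60 and 71 held the high values, and mice 50 and 80 were near the highest FcD mice. Adipoq, the fat cell hormone adiponectin, was at 4.08, 5.10, 1.63, 2.23 and 0.863 CPM in the FcD mice and 38.2, 5.66, 19.5, 83.5 and 3.85 CPM in the combination mice (log2 difference 3.45, SE 1.18, adjusted p = 0.136). Lpl, lipoprotein lipase, was at 26.5, 19.9, 8.64, 17.0 and 4.18 CPM in the FcD mice and 180.4, 15.3, 96.4, 268 and 77.4 CPM in the combination mice (log2 difference 3.06, SE 0.92, adjusted p = 0.128). Ucp1, the heat-producing protein of brown fat, was at 0.0619, 0.418, 0, 0 and 0 CPM in the FcD mice and 1.87, 0.0754, 5.85, 4.11 and 0 CPM in the combination mice (log2 difference 4.65, SE 1.41, adjusted p = 0.128). Ucp1 had at most 5 reads in an FcD mouse and at most 73 in a combination mouse. Without mice 44 and 71, 2 of the 13 had an unadjusted p under 0.05. Epithelial and carcinoma genes summed to 19.0, 15.1, 26.8, 49.2 and 37.5 CPM in the FcD mice and 17.5, 17.6, 11.1, 571 and 66.6 CPM in the combination mice. The difference lay almost wholly in mouse 71, where Krt8, a keratin of simple epithelium, was 172 CPM. Krt8 was at most 13.4 CPM in the other combination mice and at most 8.39 CPM in the FcD mice. Of the 9 genes, 7 were higher and 1 lower, and 0 were higher without mouse 71 or without mouse 58, 1 without mouse 41, 3 without mouse 61 and 4 without mouse 75. The lower gene did not reach this p without mouse 41, 58, 75, 60, 71 or 80. Keratinocyte genes summed to 4.51 to 12.3 CPM in the FcD mice and to 5.29 to 35.3 CPM in the combination mice. Skeletal muscle genes summed to 4.01 to 5.44 and 3.05 to 10.3 CPM, and red blood cell genes summed to 30.2 to 185 and 44.5 to 309.9 CPM. Of the 15 endothelial genes, 1 was higher and 0 lower, with 3 higher without mouse 50, 2 without mouse 41 and 0 without mice 44 and 71. The part of adjoining fat or epithelium in the immune and stromal differences was not tested beyond leaving out these mice.

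**Figure D4:**
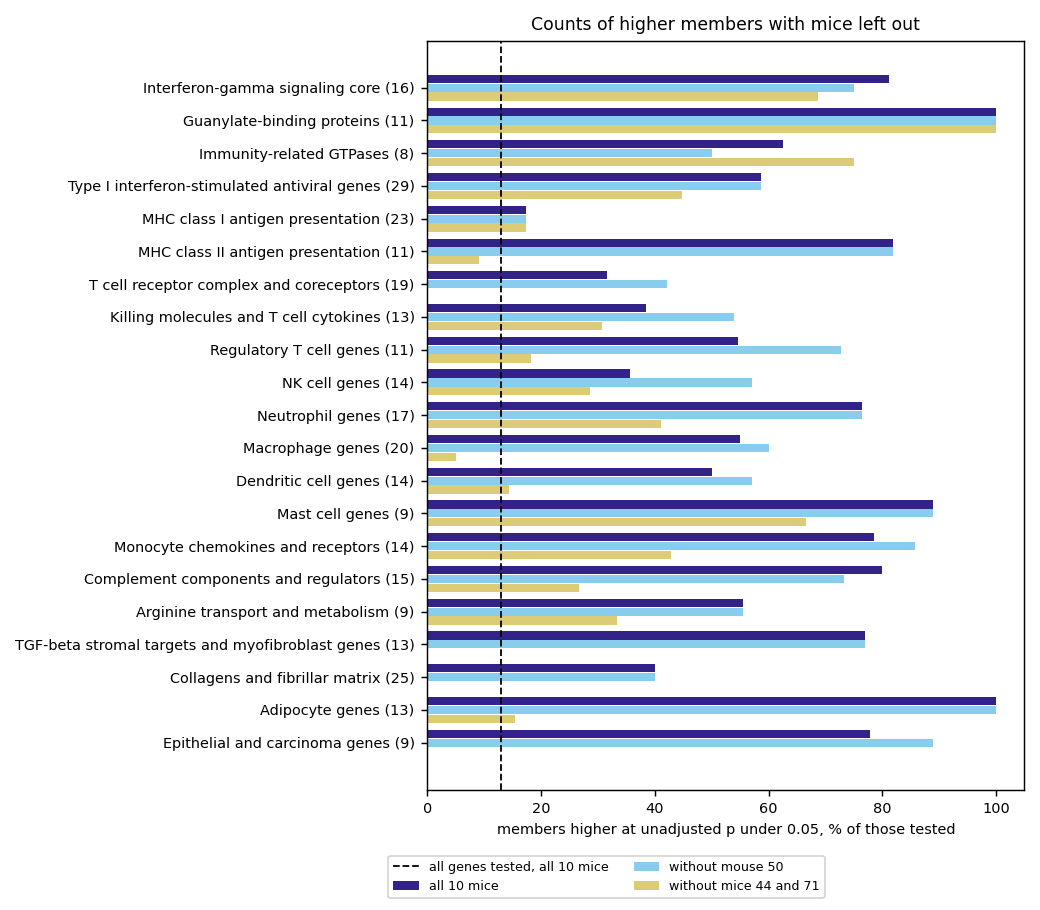
Share of each list's tested members (in brackets) that were higher at an unadjusted p under 0.05, with all 10 mice, without mouse 50 and without mice 44 and 71. The dashed line is the 13.0% of all genes with all 10 mice, which is 16.6% without mouse 50 and 3.17% without mice 44 and 71. The GBP bars are at 11 of 11 in the cases drawn, while the bars of stromal, collagen and epithelial genes go to 0 without mice 44 and 71. The GBP count without mouse 75, which is not drawn, was 7 of 11.

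Cell cycle and ribosomal protein genes lay mostly on the lower side. Among 28 cell cycle and DNA replication genes, 0 were higher and 10 lower at an unadjusted p under 0.05, and 27 had a log2 difference below 0 (median log2 difference -0.21). Mcm7, a subunit of the replicative helicase, was at 275, 219.5, 225, 207 and 224 CPM in the FcD mice and 158, 201, 179, 137 and 209 CPM in the combination mice (log2 difference -0.38, SE 0.13, adjusted p = 0.136). Kif2c, a kinesin that corrects chromosome attachments, was at 69.6, 61.3, 64.1, 64.9 and 59.0 CPM in the FcD mice and 38.6, 50.5, 51.6, 43.8 and 58.1 CPM in the combination mice (log2 difference -0.39, SE 0.11, adjusted p = 0.122). Every combination mouse was below every FcD mouse. The 10 were 4 without mouse 41, 2 without mouse 44, 2 without mouse 71, 20 without mouse 80 and 0 without mice 44 and 71. Of the 81 ribosomal protein genes, 78 had a log2 difference below 0 (median log2 difference -0.23) but 3 an unadjusted p under 0.05. That count was 64 without mouse 50, when the median log2 difference was -0.43, 1 without mouse 41, 61, 75, 44 or 60, and 0 without mouse 58, 71 or 80, or without mice 44 and 71. Their summed level was 89159.9, 88806, 82553, 83147 and 84577 CPM in the FcD mice and 68735, 107189, 67858, 61069 and 57502 CPM in the combination mice, with 4 combination mice below and mouse 50 above the whole FcD range. Respiratory chain genes had 4 of 76 lower and proteasome subunits 0 of 31. The respiratory chain count was 22 without mouse 50, 6 without mouse 70, 1 or 2 without mouse 44, 60 or 61, and 0 without mouse 41, 75, 71 or 80. Ptprc lay above, and the ribosomal protein sum below, the whole FcD range in the same 4 combination mice, and the part of leukocyte RNA in the lower values was not tested.

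The 10 higher genes with the smallest p among those without overlap were Defb52, Clec4e, Cib2, Irak2, Cdo1, Thrsp, Ly6i, Mst1r, Gpx3 and C3, each with an adjusted p of 0.122 in edgeR's quasi-likelihood test. Clec4e, Irak2 and C3 are given above. Defb52, a β-defensin, was at 0.309, 0.585, 0.283, 0.338 and 0 CPM in the FcD mice and 3.46, 1.96, 3.93, 1.89 and 1.66 CPM in the combination mice (log2 difference 3.08, SE 0.61, adjusted p = 0.122). Ly6i, a surface antigen of the Ly6 family, was at 1.48, 1.92, 1.42, 0.879 and 0.332 CPM in the FcD mice and 5.33, 4.22, 5.53, 4.99 and 4.18 CPM in the combination mice (log2 difference 2.01, SE 0.45, adjusted p = 0.122), with the combination mice within a narrow range. Thrsp, a regulator of fat synthesis, was at 0.495, 2.17, 0.283, 1.01 and 0.266 CPM in the FcD mice and 35.7, 2.71, 24.5, 109 and 3.72 CPM in the combination mice (log2 difference 5.41, SE 1.21, adjusted p = 0.122). Gpx3, a secreted glutathione peroxidase, was at 10.6, 8.77, 8.78, 8.66 and 11.3 CPM in the FcD mice and 31.0, 12.4, 17.3, 453 and 34.0 CPM in the combination mice (log2 difference 3.51, SE 0.80, adjusted p = 0.122). Thrsp and Gpx3 were both highest in mouse 71. Cib2, Cdo1 and Mst1r were 2.13 (SE 0.44), 3.29 (SE 0.73) and 2.63 (SE 0.60) higher. With the library part as a covariate, edgeR called 4 genes higher, which were Clec4e, Defb52, Elf5 and Prom2, the last 2 of them chosen here for that call after their values were seen.

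The 10 lower genes chosen in the same way were Cnnm3, Ing5, Pcdh1, Gtf2ird2, RP23-418A13.10, Tcf19, Rpp14, Elk3, Kif2c and Abcb1a, and their differences were smaller. Cnnm3, a magnesium transport protein, was at 30.9, 28.3, 29.7, 29.2 and 32.9 CPM in the FcD mice and 23.6, 25.7, 23.1, 20.6 and 23.8 CPM in the combination mice (log2 difference -0.37, SE 0.09, adjusted p = 0.122). Pcdh1, a protocadherin, was at 131, 123, 132, 122 and 148 CPM in the FcD mice and 101, 103, 99.5, 93.8 and 96.7 CPM in the combination mice (log2 difference -0.41, SE 0.10, adjusted p = 0.122). Elk3, a transcription factor of the Ets family, was at 197, 184, 222, 198 and 193 CPM in the FcD mice and 157, 175, 163, 149 and 172 CPM in the combination mice (log2 difference -0.28, SE 0.08, adjusted p = 0.122). Ing5, Gtf2ird2, Tcf19, Rpp14 and Abcb1a lay between -0.51 and -0.29 on the log2 scale, and RP23-418A13.10 was -0.92 (SE 0.23).

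Anti-PD-1 alone was also compared with the isotype control. In other mice it was added to the WT form of the anti-GARP:TGF-β1 antibody, which binds Fcγ receptors. These groups of 5 mice share no mouse with the FcD comparison and had the same strain, tumor, days and collection. The label of the anti-PD-1 group names no isotype antibody, so the first comparison exchanges an antibody for another. The isotype control was motavizumab, an antibody to a viral protein, on mouse IgG2a. Against the isotype control, anti-PD-1 alone gave 89 genes higher (0.603%) and 52 lower (0.352%) at an unadjusted p under 0.05. Added to WT, it gave 2443 higher (16.6%) and 1918 lower (13.0%). The adjusted p of edgeR's quasi-likelihood test called 0 genes in both, while DESeq2 called 1 higher in the first, Myh1 of skeletal muscle, and 400 higher and 219 lower in the second. Myh1 did not pass edgeR's filter and had at most 3 reads in the 10 mice of the FcD comparison. The difference between the effect with FcD and the effect without any anti-GARP:TGF-β1 was tested directly, and 0 genes were called, with 361 (2.45%) higher and 302 (2.05%) lower at an unadjusted p under 0.05 and 0 called by DESeq2, but limma voom with quality weights called 758 higher and 657 lower. With 1 mouse left out, 0 genes were called in each refit, but at an unadjusted p under 0.05 the counts were 1044 higher and 612 lower without mouse 52 of the anti-PD-1 group and 742 and 1039 without mouse 50. They were 236 and 210 without mouse 44, 211 and 201 without mouse 71, 224 and 228 without mouse 75, 384 and 171 without mouse 47 and 235 and 247 without mouse 54, both given anti-PD-1 alone, and otherwise within 1.5 times of those with all mice. For FcD against WT as the partner, 0 genes were called, with 165 (1.12%) and 99 (0.671%) at an unadjusted p under 0.05 and 0 called by DESeq2 or limma voom. These counts were 570 and 265 without mouse 77 of the WT and anti-PD-1 group, the largest of the refits with 1 mouse left out. They ranged over 102 to 219 and 64 to 212 in the other refits, which moved them by more than 1.5 times without mouse 41, 71, 80, 42, 49, 65, 55 or 69, and 0 genes were called in each. The comparison of anti-PD-1 alone with the isotype control and that of its addition to WT were not refitted with a mouse left out.

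The list medians of these settings stand side by side as descriptions. For GBPs the median log2 difference was 0.20 for anti-PD-1 alone against the isotype control, 0.91 on adding anti-PD-1 to WT and 0.99 to FcD. MHC class II genes gave 0.14, 0.93 and 1.04, mast cell genes 0.75, 1.28 and 1.34, and neutrophil genes 0.35, 0.81 and 1.63. At an unadjusted p under 0.05, 2 of 11 GBPs and 3 of 17 neutrophil genes had a larger effect with FcD than without it. This held for 0 of 11 MHC class II genes and 0 of 9 mast cell genes. Of the 29 antiviral interferon genes, 9 had a larger effect with FcD than without it at an unadjusted p under 0.05, beside 2.45% of all genes, and 0 a larger one than with WT. The T cell receptor genes gave -0.42, 0.67 and 0.81, and 2 of 19 had a larger effect with FcD than without it at that p. Fat cell genes gave 1.36, 0.09 and 3.45, and 7 of 13 had a larger effect with FcD than with WT at an unadjusted p under 0.05, beside 1.12% of all genes. The high values of the FcD combination lay in mice 44, 60 and 71. Without mice 44 and 71 the median with FcD was 1.94, and the 7 were not recounted. Skeletal muscle genes gave 3.73, -0.87 and 0.20, the last -0.46 without mouse 50. All 8 were higher at an unadjusted p under 0.05 on adding anti-PD-1 to the isotype control, and 6 had a smaller effect with FcD than without it at that p, beside 2.05% of all genes. The genes with the smallest p for the difference were Cnnm3 against no partner (-0.46, SE 0.12, adjusted p = 0.787) and RP24-325G24.1 against WT (-2.05, SE 0.49, adjusted p = 1.00).

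**Figure D5:**
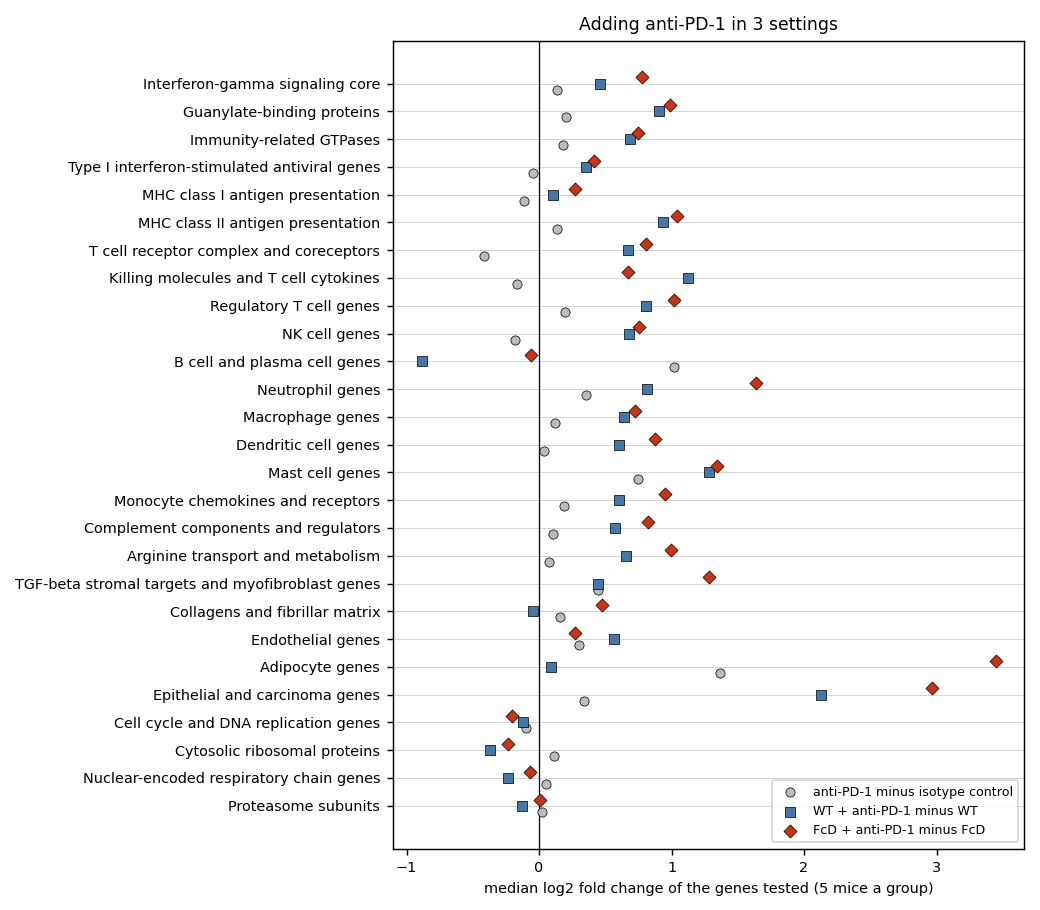
Median log2 difference of 27 gene lists (x axis, 0 marked) for anti-PD-1 alone against the isotype control (grey circles), and on adding anti-PD-1 to anti-GARP:TGF-β1 WT (blue squares) or to anti-GARP:TGF-β1 FcD (red diamonds), 5 mice a group. Red and blue lie close together for GBPs and mast cell genes, and red lies alone at 3.45 for adipocyte genes, which were high in mice 44, 60 and 71.

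Genes that cytokines induced in cultured human cells, a set of signatures made by the study's laboratory, were matched to mouse symbols. Of 206 genes of the IFNγ signature, 90 were higher and 11 lower at an unadjusted p under 0.05 (median log2 difference 0.34), and 59 and 4 without mice 44 and 71. The TNFα signature had 110 and 11 of 277 (median 0.44), and the IL-1β signature 103 and 13 of 268 (median 0.33). Without mice 44 and 71 these were 51 and 2 for TNFα and 44 and 3 for IL-1β. TGF-β1 signature genes had 37 and 8 of 113 from all cells (median 0.21) and 13 and 2 of 40 from CD4+ T cells (median 0.18), and 6 and 1 were higher without mice 44 and 71. Without mouse 71, 20 and 5 genes of these TGF-β1 lists were higher, and without mouse 44 24 and 7. The lower counts of the IFNγ, TNFα and IL-1β signatures were 25, 18 and 28 without mouse 50, 7, 4 and 5 without mouse 71, and 9, 4 and 6 without mouse 44, and those of the TGF-β1 lists 5 and 1 without mouse 44. The signatures share genes with each other and with the lists above.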

How the data were processed

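Whole-tumor RNA of 40 mice in 8 groups of 5 was sequenced as 100-base pairs after poly(A) selection with a stranded kit. Per the labels, the authors aligned reads to GRCm38, and the submitters' processing notes name STAR 2.5.3a, SAMtools 1.6 and HTSeq 0.9.1. The deposited values are raw counts per gene for 54087 genes, with no normalization by the authors. Some gene names in the table had turned into dates, and these genes stayed in the fit unnamed. A few items are not reported here.

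Counts were scaled by TMM and fitted with edgeR 4.0.16 (R 4.3.3, filterByExpr, robust quasi-likelihood F test) in 1 model of 8 groups over all 40 mice, which left 14760 genes, with Benjamini-Hochberg adjustment over all of them. The SE of a log2 difference is its size divided by the root of F. CPM use TMM library sizes. DESeq2 1.42.0, limma 3.58.1, other scalings, filters, covariates and each mouse left out were the alternatives. The scripts were tested on simulated data. Promoter motifs were counted in RefSeq sequence. The genes named in the text were taken from among these, and not all are named: the 10 genes with the smallest p in each direction among those without overlap (predicted Gm and Rik genes left out), up to 6 members of each list with the smallest p and all members of a list of 8 or fewer, up to 5 genes for each difference of effects, and 13 targets and T cell genes in any case. The gene lists, the comparison and the named genes were chosen with earlier results of these data known. Replicate numbers were given in accession order and pair no mice.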

Additional observations from a re-analysis of the deposited data

Results flagged for a closer look

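In 60 groups of 5 mice tested for a sample far from the others, 5 were picked out, and chance picks out about 1 in 20. The measure is the gap between the extreme mouse and its nearest neighbor divided by the whole range of its group. Mouse 50 of the combination was low in the mean log2 level of the IFNγ signaling core, at 0.75 above the FcD mean against 1.02 to 1.11 in the other combination mice (gap share 0.750). The same mouse was low in mast cell genes, at 0.37 against 1.21 to 1.45 (gap share 0.780), and in Ptprc, at 6.74 log2 CPM against 8.02 to 8.14 (gap share 0.917). Mouse 44 of the combination was high in killing molecules and T cell cytokines, at 2.16 above the FcD mean against 0.20 to 0.62 (gap share 0.785). Mouse 75 of the FcD group was low in Prf1, at 3.57 log2 CPM against 5.44 to 5.62 (gap share 0.912).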

How the results depend on the processing

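No gene passed an adjusted p of 0.05 in edgeR with all mice, with DESeq2 size factors, with no filter on low counts or within libraries 41 to 60. The calls were 175 higher and 24 lower with DESeq2's Wald test, 2544 and 2177 with limma voom and quality weights, and 426 and 50 with only the 2 groups in the model. They were 4 higher with library part and 2 with library number as a covariate, and 3 within libraries 61 to 80, with 0 lower in each. With 1 mouse left out they ranged over 0 to 434 higher and 0 to 285 lower, the highest without mouse 50. At an unadjusted p under 0.05, higher and lower genes numbered 3359 and 3095 with limma voom, 271 and 285 within libraries 41 to 60, 478 and 278 without mice 44 and 71, and 1208 to 2480 and 652 to 2541 with 1 mouse left out. Among listed genes, 34 were higher within libraries 41 to 60 and 112 without mice 44 and 71, while 136 were lower with limma voom, 12 within libraries 41 to 60, 54 within libraries 61 to 80, 7 without mice 44 and 71 and 12 to 130 with 1 mouse left out. Limma voom called 1415 genes for the difference between the anti-PD-1 effects with and without FcD, where edgeR and DESeq2 called 0. The cause of these differences was not tested. Tgfb1 was -0.0369 and Pdcd1 -0.11 without mice 44 and 71, and with 1 mouse left out Tgfb1 ranged over -0.0449 to 0.10, Pdcd1 -0.21 to 0.55, Ifitm3 -0.0164 to 0.11 and Ms4a1 -1.55 to 0.99. Krt8 was -1.95, Krt19 -0.30, Epcam -0.69 and Krt5 -0.51 with limma voom, which weights each mouse. Of 140 genes examined, limma voom called 125 in the same direction and turned the direction of 4, the covariates of library part and library number each gave 2 calls, DESeq2 called 46, the fit of 2 groups 62 and edgeR without mouse 50 59. No paired analysis was possible because the labels give the mice no shared replicate numbers. Depth limits genes of few reads such as Ifng, Defb52 and Ucp1. The alternatives within library parts and without mice 44 and 71 were chosen after seeing the data.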

Other observations

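Further groups were counted at an unadjusted p under 0.05, beside 13.0% higher and 7.91% lower of all genes. Chemokines that attract neutrophils gave 3 higher and 0 lower of 6 (median log2 difference 1.54), with Cxcl2 at 12.8, 4.34, 0.779, 4.40 and 1.46 CPM in the FcD mice and 40.3, 2.56, 7.77, 14.6 and 20.2 CPM in the combination mice (log2 difference 1.84, SE 0.81, adjusted p = 0.198). Mouse 44 was far above the others. Chemokines of lymphoid and dendritic cells gave 6 higher and 0 lower of 14 (median log2 difference 0.68), and Cxcl16, which is both a surface and a soluble ligand of Cxcr6, was at 118, 72.5, 114, 104 and 73.2 CPM in the FcD mice and 163, 139, 146, 139 and 131 CPM in the combination mice (log2 difference 0.58, SE 0.25, adjusted p = 0.186). The IL-2, IL-7 and IL-15 pathway, which sustains T and NK cells, gave 10 higher and 0 lower of 17 (median log2 difference 0.45). Leukocyte adhesion molecules gave 5 higher and 1 lower of 12 (median log2 difference 0.54), costimulatory receptors and ligands 2 higher and 0 lower of 13, and tissue-residency genes of T cells 1 higher and 1 lower of 8 (median log2 difference 0.42). Matrix metalloproteinases and their inhibitors gave 4 higher and 2 lower of 13. Eicosanoid genes, which make prostaglandins and leukotrienes, gave 8 higher and 2 lower of 22 (median log2 difference 0.59), with Ptgs1, a cyclooxygenase, at 160.2, 157, 159, 140.3 and 143 CPM in the FcD mice and 83.5, 138, 102, 76.8 and 104 CPM in the combination mice (log2 difference -0.59, SE 0.17, adjusted p = 0.127). Glycolysis and hypoxia genes gave 3 higher and 0 lower of 25, unfolded protein response genes 1 higher and 2 lower of 14 and immediate early genes 4 higher and 0 lower of 13. The median of the neutrophil chemokines was 0.895 without mouse 44 and that of the lymphoid chemokines 1.18 without mouse 70. Without mice 44 and 71, these counts of higher genes were 1, 3, 6, 2, 3, 0, 0, 2, 1, 0 and 0 in the same order. Leaving out 1 mouse moved some counts by more than 1.5 times. Neutrophil chemokines gave 1 higher without mouse 44 and lymphoid chemokines 3 without mouse 60. Adhesion molecules gave 2 without mouse 44 or 75 and 3 without mouse 58, 61, 60 or 80, and their lower gene did not reach this p without mouse 58, 71 or 80. Costimulatory genes gave 5 without mouse 50 and 4 without mouse 41 or 70, with 2 lower without mouse 50 and 1 without mouse 41, 61, 70 or 75. Tissue-residency genes gave 2 without mouse 41 and 0 without mouse 70 or 44. Metalloproteinases and inhibitors gave 2 higher without mouse 44, and 1 lower without any 1 mouse other than 41 or 50. Unfolded protein response genes gave 6 lower without mouse 50, 4 without mouse 41 and 1 without mouse 58, 61, 44 or 80, and immediate early genes 2 lower without mouse 50 and 1 without mouse 41 or 58.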
